A study of Mus musculus with 6 samples.

Results

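The 8 genes described here bear on how much T3 can reach its nuclear receptors, and they were measured in mouse enterospheres kept with or without the hormone. They are the plasma membrane transporter genes Slc16a10, Slco1c1, Slc7a5 and Slc7a8, the deiodinase genes Dio1, Dio2 and Dio3, and Crym, the gene of a cytosolic T3-binding protein. They were chosen by name, and all 8 had a probe set of their own, 1 each, among the 19938 genes tested. Enterospheres are free-floating cell clusters grown from dissociated gut muscle, here of C57BL/6 mice at P0 (up to 12 hours old), with cells of 3 mice in each sample. The spheres were grown with EGF and FGF for 4 and then 5 days, moved to a differentiation medium for 1 day, and then kept for 1 more day. The T3 group (3 samples) received T3 for that last day at 100 nM (the labels write nm, read here as nM), and the control group (3 samples) stayed untreated. The growth medium of both groups held B27 supplement, which as usually made contains T3, and the differentiation medium is listed without it. Each sample was hybridised to 1 Affymetrix array, and values are normalized signals on the log2 scale as the authors deposited them.

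Thyroid hormone enters cells through transporters of several families, since the iodothyronines do not cross the membrane freely enough by diffusion. Inside the cell, deiodinases remove iodine atoms: the outer-ring activity of Dio2 turns the prohormone T4 into T3, the inner-ring activity of Dio3 inactivates both T4 and T3, and Dio1 can do either. Crym encodes mu-crystallin, which holds T3 in the cytosol and is also a ketimine reductase. In the brain, Dio2 is known mainly from astrocytes and tanycytes and Dio3 from neurons.

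Markers of the labelled cell type were bright. The 12 measured markers of enteric neural progenitors had a median control value of 10.90, against 6.96 over all genes, with Sox10 at 11.63 and Ret at 11.20. Fibroblast and mesenchyme markers (median 10.36), glia markers (10.17) and neuron markers (10.02) were also bright. A change in whole spheres therefore cannot be placed in one cell type. Fewer cells of a type and less RNA per cell cannot be told apart in such samples. Klf9 and Hr, 2 known direct targets of T3, rose 3.63-fold and 3.78-fold in the T3 arrays. Over all genes, 618 of 19938 (3.10%) changed at an adjusted p under 0.05 (limma, Benjamini-Hochberg over all genes), 454 higher (2.28%) and 164 lower (0.823%).

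Of the 8 genes, Crym fell with T3 and the other 7 did not pass the test. Downward calls made up 0.823% of all genes, and upward calls, of which the 8 held none, 2.28%. The signals of T3 and control arrays did not overlap for 4 of the 8 (Slc7a5, Slc7a8, Dio3 and Crym), against 19.5% of all genes. An unadjusted p under 0.05 was reached by 3 of the 8 (Slc7a8, Dio3 and Crym), against 13.7% of all genes. The median log2 change of the 8 was -0.01, and that of all genes was 0.01. The panels of single arrays show the values behind these counts.

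**Figure D1:**
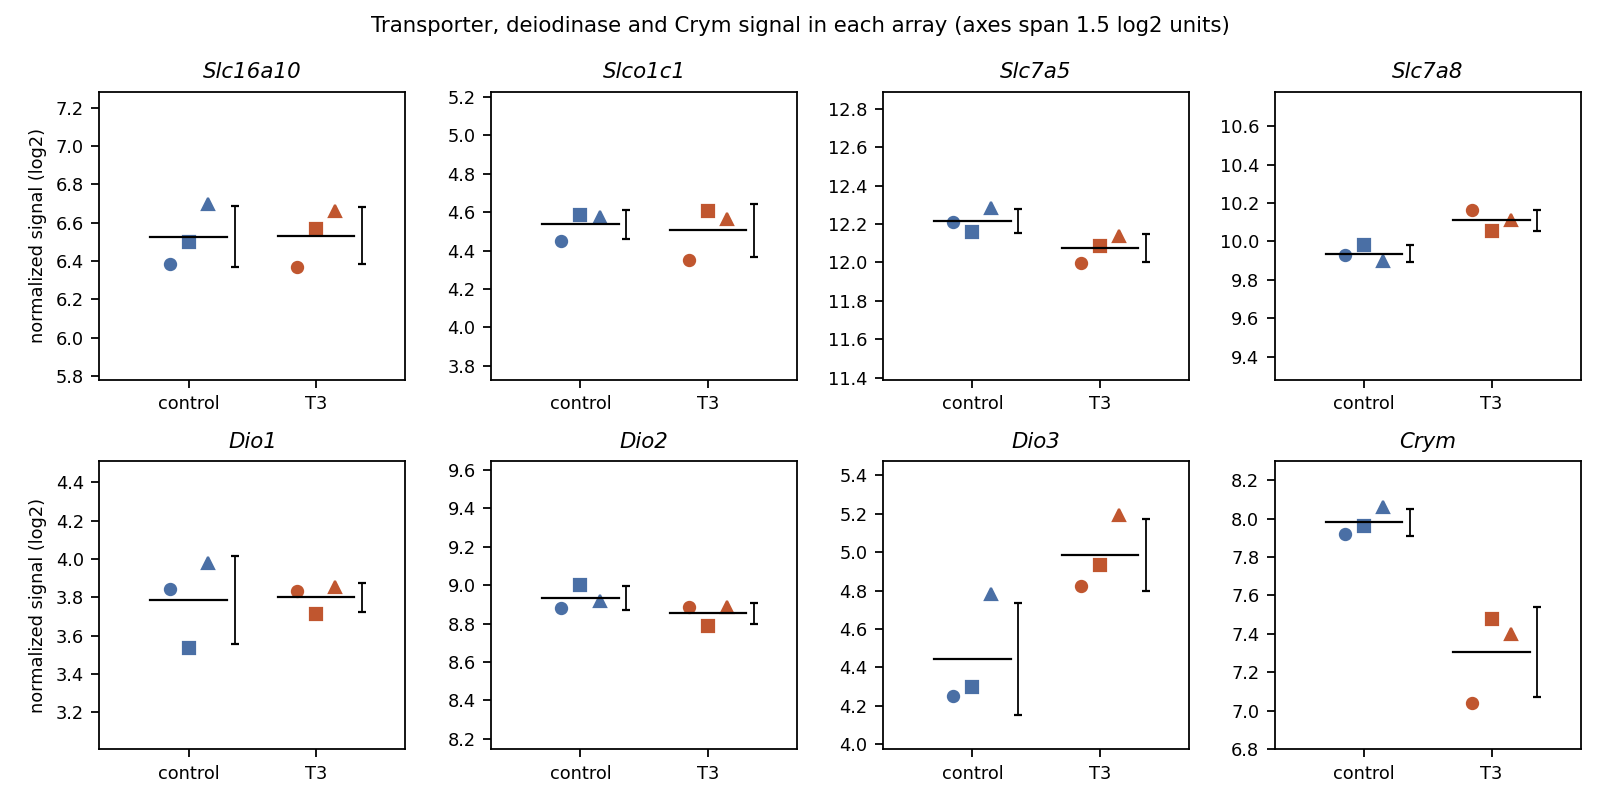
Normalized signal (log2, vertical axes, each spanning the same width) of the 8 genes in the 3 control arrays (blue) and the 3 T3 arrays (orange); circles, squares and triangles are replicates 1, 2 and 3, bars are group means and whiskers are SDs. Crym lies at 7.92 to 8.06 in controls and at 7.04 to 7.48 with T3, and the groups are also apart for Dio3, Slc7a8 and Slc7a5.

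Crym (probe set 10567546) had the smallest p of the 8. Its control values were 7.92, 7.96 and 8.06 in replicates 1 to 3, and its T3 values were 7.04, 7.48 and 7.40. All 3 T3 arrays lay below all 3 control arrays, and T3 replicate 1 lay lowest. The group means were 7.98 ± 0.07 (SD, n = 3) and 7.30 ± 0.23 (SD, n = 3). The log2 change was -0.68 ± 0.12 (SE), a signal 1.60-fold lower with T3, with a 95% interval of -0.94 to -0.41 and adjusted p = 0.0194 (limma). It ranked 310 of 19938 by p. The call was lost without T3 replicate 3 (adjusted p = 0.0513), without control replicate 1 (adjusted p = 0.0740) and without control replicate 3 (adjusted p = 0.0610), while the change stayed between -0.76 and -0.54 without any 1 array.

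Among the deiodinases, Dio3 had the largest difference, upwards, but did not pass. Dio3 (probe set 10398446) read 4.25, 4.30 and 4.78 in control replicates 1 to 3 and 4.83, 4.93 and 5.19 in T3 replicates 1 to 3. The groups did not overlap, but control replicate 3 lay close below T3 replicate 1 and far from the other control arrays. The log2 difference was 0.54 ± 0.15 (SE), or 1.45-fold in signal, with a 95% interval of 0.19 to 0.89, unadjusted p = 0.00668 and adjusted p = 0.120 (limma). Without control replicate 3 the difference was 0.71 and passed (adjusted p = 0.0296). Without control replicate 1 it was 0.44 (adjusted p = 0.414). The control mean of 4.44 was above 15.7% of the genes tested, which is only a rough guide because probe sets bind with different strength. Detection calls are not part of the values, and whether Dio3 exceeded background in the control arrays is unknown, and at such signals a fold tends to understate a change.

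Dio2 and Dio1 showed no difference larger than the range of values within either group. Dio2 (probe set 10401841) read 8.88, 9.00 and 8.92 in control replicates 1 to 3 and 8.88, 8.79 and 8.89 in T3 replicates 1 to 3. The groups overlapped, with a log2 difference of -0.08 ± 0.07 (SE), a 95% interval of -0.24 to 0.08 and adjusted p = 0.757 (limma). Its control mean of 8.93 was above 77.8% of genes. Dio1 (probe set 10514912) read 3.84, 3.54 and 3.98 in controls and 3.83, 3.71 and 3.85 with T3. Dio1 is a classical T3-induced gene of mouse liver. Here its interval ran from -0.25 to 0.27 around a difference of 0.01, whose sign turned with scaling and with the arrays used. Its control mean was above 7.33% of genes, and without detection calls its presence above background is unknown.

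The inactivating and the activating deiodinase gene were also compared within each array, as a description with no test, since neither passed on its own. Signals of different probe sets cannot be set against each other as amounts, but their difference within an array can be followed from array to array. Relative to the control mean, the Dio3 minus Dio2 difference was -0.14, -0.21 and 0.35 in control replicates 1 to 3 and 0.43, 0.63 and 0.80 in T3 replicates 1 to 3. The T3 arrays lay above the control arrays, on average by 0.62 on the log2 scale (SD 0.31 in controls and 0.18 with T3, n = 3 each), of which 0.54 is the difference of Dio3 itself. Control replicate 3 nearly reached T3 replicate 1.

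The start regions of these 2 genes are shown because they encode the enzymes that inactivate and activate the hormone. RefSeq sequences on GRCm38.p6 were found for 6 of the 8 genes, and Crym and Slc7a5 had none in that table. Each sequence below gives the 250 bases before the annotated start, 5′ to 3′ on the strand of the gene, and capitals mark the TATAAA box. Dio3 lies on the plus strand at chr12:110278980-110279229 and Dio2 on the minus strand at chr12:90739039-90739288.
Dio3: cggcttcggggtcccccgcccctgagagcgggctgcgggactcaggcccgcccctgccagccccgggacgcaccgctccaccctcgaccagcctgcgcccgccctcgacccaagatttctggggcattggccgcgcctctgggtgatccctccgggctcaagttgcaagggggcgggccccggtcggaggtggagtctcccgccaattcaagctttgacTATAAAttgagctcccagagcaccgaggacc
Dio2: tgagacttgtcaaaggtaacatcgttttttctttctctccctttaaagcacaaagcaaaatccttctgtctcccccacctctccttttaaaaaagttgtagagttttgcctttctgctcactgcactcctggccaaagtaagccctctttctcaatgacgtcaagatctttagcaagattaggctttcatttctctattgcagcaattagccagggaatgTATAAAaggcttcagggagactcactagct
The box began 31 bases before the start of Dio3 and 30 bases before that of Dio2, on the strand of the gene. A TATAAA on that strand 20 to 40 bases before the start was present in 1.99% of the 32851 start regions of the table. The Dio3 region was 69.6% G and C and the Dio2 region 41.6%. The half-site AGGTCA, which thyroid hormone receptors bind, was searched on both strands. It was in none of the 6 regions and in 14% of all regions of the same length. Its direct repeat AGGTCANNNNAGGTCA, which includes the half-site, was in none of the 6 and in 0.0152% of all. No match says only that these letters are not in this window.

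Dio3 lies at one end of an imprinted gene domain, and its neighbours were measured beside it. In the RefSeq order of mouse chromosome 12, Begain, Dlk1, Meg3, Rtl1, Rian and Mirg come before Dio3. Of 5 measured genes, none passed the test, and 1 had an unadjusted p under 0.05, against 13.7% of all genes. The median log2 change was -0.18, against 0.01 over all genes. Begain, a postsynaptic scaffold-associated gene, had a difference of 0.55 ± 0.14 (SE) with adjusted p = 0.0809 (limma), and it passed in 5 of 16 alternative settings, with median centring, without the dimmest 50% of genes, with trend and robust fitting, with array quality weights and without control replicate 2 (adjusted p 0.00707 to 0.0477). Rian, a maternally expressed non-coding RNA, had a difference of -0.63 ± 0.28 (SE) with adjusted p = 0.365. Without control replicate 3, at 4.78 against 5.69 and 5.99 in the other control arrays, Rian was at -0.98 and passed (adjusted p = 0.0277). Dlk1, the gene of a paternally expressed Notch-like ligand, was bright at 11.93 in controls and had a difference of -0.20 (adjusted p = 0.393).

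None of the 4 transporter genes passed, and their 95% intervals all lay between -0.31 and 0.33. Slc7a5 (LAT1) and Slc7a8 (LAT2) encode light chains that pair with the heavy chain Slc3a2 and carry large neutral amino acids as well as iodothyronines. Slc7a5 (probe set 10582275) read 12.21, 12.16 and 12.28 in control replicates 1 to 3 and 12.00, 12.09 and 12.14 in T3 replicates 1 to 3. Its T3 arrays all lay below the control arrays, but by little. The log2 difference was -0.14 ± 0.07 (SE), with a 95% interval of -0.31 to 0.02 and adjusted p = 0.466 (limma). Slc7a8 (probe set 10419854) read 9.93, 9.98 and 9.90 in controls and 10.16, 10.05 and 10.11 with T3. Its T3 arrays all lay above the control arrays. The difference was 0.17 ± 0.07 (SE), with a 95% interval of 0.02 to 0.33, unadjusted p = 0.0336 and adjusted p = 0.301.

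Relative to the control mean, the Slc7a8 minus Slc7a5 difference within an array was -0.0020, 0.11 and -0.10 in control replicates 1 to 3 and 0.45, 0.25 and 0.26 in T3 replicates 1 to 3. The T3 arrays lay above the control arrays by 0.32 on average (SD 0.11 in both groups, n = 3 each, not tested). T3 replicate 1 lay highest. This shift only joins the 0.17 of Slc7a8 and the -0.14 of Slc7a5, neither of which passed. As both genes had groups apart in opposite directions, their difference had to separate the groups. The shared heavy chain gene Slc3a2 had a log2 difference of -0.07 ± 0.07 (SE) and adjusted p = 0.824 (limma). Against Slc3a2 in the same array, Slc7a8 shifted by 0.24, of which 0.17 is the difference of Slc7a8 itself. The groups did not overlap, as was so for Slc7a8 alone. Slc7a5 shifted by -0.08 against Slc3a2, with groups that overlapped.

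Slc16a10 and Slco1c1 did not differ beyond the spread of the arrays. Slc16a10 (MCT10, a carrier of aromatic amino acids and iodothyronines, probe set 10368720) read 6.39, 6.50 and 6.70 in control replicates 1 to 3 and 6.37, 6.57 and 6.66 in T3 replicates 1 to 3. The groups overlapped throughout, with a log2 difference of 0.0059, a 95% interval of -0.24 to 0.25 and adjusted p = 0.994 (limma). Slco1c1 (OATP1C1, a T4 transporter of the blood-brain barrier in mice, probe set 10542596) read 4.45, 4.59 and 4.57 in controls and 4.35, 4.61 and 4.56 with T3. Its difference was -0.03, with a 95% interval of -0.23 to 0.17 and adjusted p = 0.958. The sign of both differences turned under other settings. The control mean of Slco1c1, 4.54, was above 16.9% of genes, and without detection calls its presence above background is unknown.

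**Figure D2:**
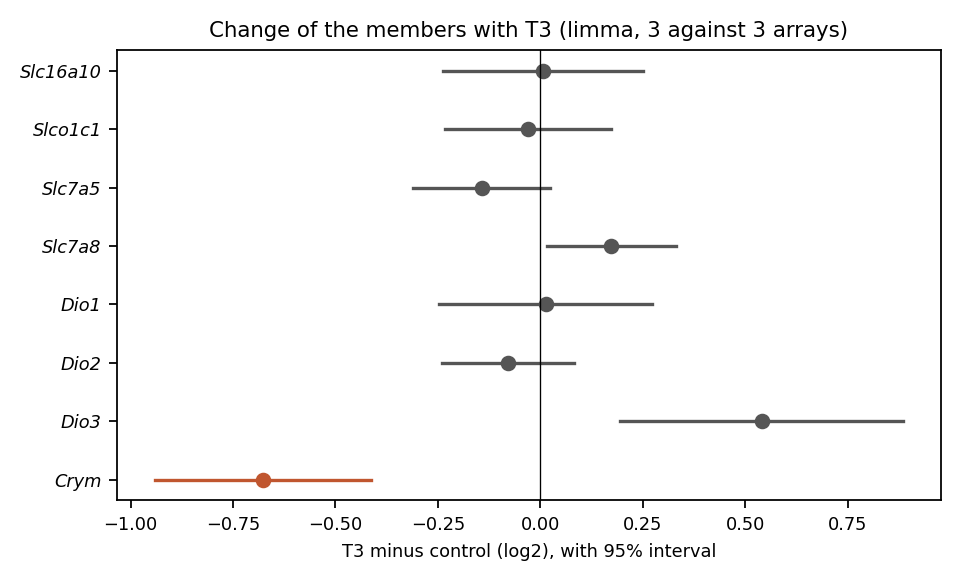
Log2 difference of T3 minus control (points, horizontal axis) with its 95% interval (lines) for each of the 8 genes, from the limma fit over 3 arrays a group. Crym, in orange, is the gene with an adjusted p under 0.05, and the unadjusted intervals of Dio3 and Slc7a8 lie above 0 although neither passed the adjusted test.

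Among other genes reported to carry thyroid hormone, 1 rose. Of 11 measured genes on that list, which includes Slc3a2, 1 rose (2.28% of all genes did), none fell and 10 did not pass. An unadjusted p under 0.05 was reached by 2 of the 11, against 13.7% of all genes. The median log2 change was -0.05, against 0.01 over all genes. The gene that rose was Slco1a5, an organic anion transporter of the OATP family (probe set 10549041). It read 4.60, 4.88 and 4.57 in control replicates 1 to 3 and 5.26, 5.43 and 5.54 in T3 replicates 1 to 3. The groups were well apart, with a log2 change of 0.73 ± 0.11 (SE), a 1.66-fold rise of a dim signal, and adjusted p = 0.0101 (limma). The call was lost without control replicate 1 (adjusted p = 0.0589). Its close relatives Slco1a4 and Slco1a6, with which a probe set could share signal, were at -0.09 and -0.0042. Slco3a1, another OATP gene, at 10.76 in controls, had a difference of 0.22 with groups that did not overlap, a 95% interval of 0.04 to 0.40 and adjusted p = 0.229, and did not pass.

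Relatives of the member transporters included 3 genes that rose. In the monocarboxylate transporter family of Slc16a10, 2 of 12 other genes rose (2.28% of all genes did), none fell and 10 did not pass. The median log2 change of the 12 was 0.08. Slc16a1, which carries lactate and pyruvate (MCT1), read 7.52, 7.66 and 7.63 in control replicates 1 to 3 and 8.33, 8.32 and 8.16 in T3 replicates 1 to 3. All T3 arrays lay well above all control arrays, and the change was 0.67 ± 0.08 (SE) with adjusted p = 0.00424 (limma). Slc16a14, a member with no well-defined cargo, changed by 0.47 ± 0.10 (SE) with adjusted p = 0.0471, and the call was kept with control replicate 2 left out but lost on leaving out any other single array (highest adjusted p 0.195), with the replicate block (0.0933) and with each probe set taken on its own (0.0524).

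Among the 14 other Slc7 and Slc43 amino acid transporter genes, 1 rose (2.28% of all genes did), none fell and 13 did not pass. The median log2 change of the 14 was -0.01. The gene that rose was Slc43a2 (LAT4), a transporter of large neutral amino acids. It read 7.64, 7.69 and 7.98 in control replicates 1 to 3 and 8.58, 8.54 and 8.61 in T3 replicates 1 to 3. The T3 arrays were close together and above all control arrays, with a change of 0.81 ± 0.10 (SE), or 1.75-fold, and adjusted p = 0.00441 (limma). The calls of Slc16a1 and Slc43a2 were kept without any 1 array. The cationic amino acid transporter gene Slc7a3 was at 0.36 and did not pass (adjusted p = 0.0844).

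**Figure D3:**
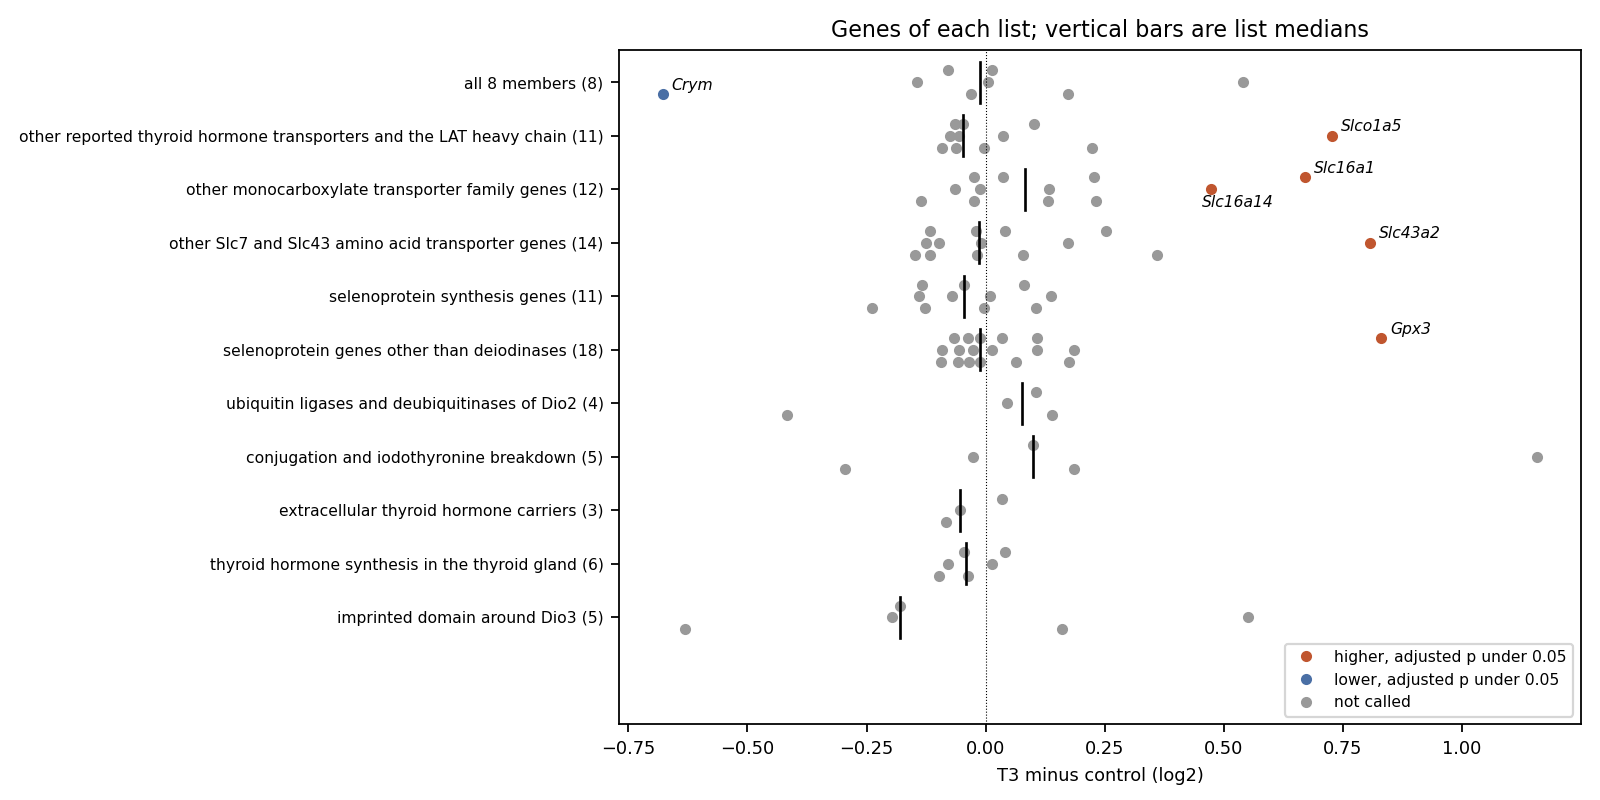
Log2 difference of T3 minus control (horizontal axis) for each measured gene (points) of the 8 members and of 10 related lists, with the number of measured genes in brackets and the list median as a vertical bar. Most genes lie near 0. The called genes are Crym (lower, blue) and Slco1a5, Slc16a1, Slc16a14, Slc43a2 and Gpx3 (higher, orange).

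Deiodinases are selenoproteins, so genes that place selenocysteine and other selenoprotein genes were examined beside them. None of 11 measured genes of selenoprotein synthesis passed (1 had an unadjusted p under 0.05, against 13.7% of all genes). Their median log2 change was -0.04. The nearest were Trnau1ap, a partner of the selenocysteine tRNA, at -0.24 ± 0.09 (SE, adjusted p = 0.242, limma) and Sepsecs, which makes selenocysteine on its tRNA, at -0.13 (adjusted p = 0.499). Of 18 other selenoprotein genes, 1 rose (2.28% of all genes did), none fell and 17 did not pass, with a median of -0.01. It was Gpx3, a secreted glutathione peroxidase, which read 7.26, 7.74 and 7.54 in control replicates 1 to 3 and 8.36, 8.36 and 8.30 in T3 replicates 1 to 3. The T3 arrays of Gpx3 were tightly grouped above the controls, with a change of 0.83 ± 0.12 (SE), or 1.78-fold, and adjusted p = 0.00821, and the call was kept without any 1 array.

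Genes that act on Dio2 protein or on the hormone itself did not pass. The Dio2 protein is marked for breakdown by ubiquitin ligases, and of 4 measured genes of this step none passed. An unadjusted p under 0.05 was reached by 1 of the 4, against 13.7% of all genes, and the median log2 change was 0.08. Wsb1, the substrate receptor of one such ligase, read 9.73, 9.85 and 9.68 in control replicates 1 to 3 and 9.06, 9.42 and 9.53 in T3 replicates 1 to 3. Its T3 arrays lay below the control arrays but were widely spread, and the difference of -0.42 ± 0.12 (SE) had adjusted p = 0.129 (limma). Usp20, a deubiquitinase that rescues Dio2, was at 0.14 (adjusted p = 0.553).

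Of 5 measured genes of conjugation and iodothyronine breakdown, none passed, with a median log2 change of 0.10. An unadjusted p under 0.05 was reached by 2 of them, against 13.7% of all genes. Aoc1, an amine oxidase known for breaking down histamine, read 5.82, 6.63 and 6.38 in control replicates 1 to 3 and 6.74, 7.44 and 8.12 in T3 replicates 1 to 3. The T3 arrays lay above the controls, but both groups were widely spread, and the difference of 1.16 ± 0.32 (SE) had adjusted p = 0.119 (limma). Without T3 replicate 1 it was 1.50 and passed (adjusted p = 0.0460), and it also passed with array quality weights at 1.72 (adjusted p = 0.00152) and with the replicate block (adjusted p = 0.0227). Sult1a1, a phenol sulfotransferase, was at -0.29 ± 0.08 (SE, adjusted p = 0.123). The 3 extracellular carrier genes and the 6 measured genes of hormone synthesis in the thyroid gland had no gene with an unadjusted p under 0.05, and medians of -0.05 and -0.04. In these lists Ttr, the carrier transthyretin, was at -0.08 (adjusted p = 0.773) and Serpina7 at -0.05 (0.858), and Tg, thyroglobulin, was at -0.10 (0.785) and Slc26a4 at -0.08 (0.842).

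The receptors of the hormone give the context of these values. Thrb rose 2.46-fold (adjusted p = 0.000308, limma), while Thra, at 11.59 in controls, had a log2 difference of -0.09 (adjusted p = 0.652).

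Likeness over the 6 arrays was compared only for genes whose range of signal was at least 0.5 times that of the member. Most like Crym among those were Egr2, a transcription factor of myelinating Schwann cells, Kera, a matrix proteoglycan, and Frzb, a secreted Wnt antagonist. Their Pearson correlations with Crym were 0.99 each, the highest of 3172 genes compared, as a description over arrays that share the group difference. All 3 were called lower, at -0.64, -1.13 and -0.73 (adjusted p = 0.0144, 0.00862 and 0.0374, limma). The call of Egr2 was lost without control replicate 1 (adjusted p = 0.0567) and that of Frzb with any 1 array left out (up to 0.119). For Dio3 the most alike were Baalc at r = 0.98, the histone gene H4c14 at 0.98 and the predicted gene Gm5592 at 0.98, among 4110 genes compared. None of these 3 passed, with differences of 0.32, 0.39 and 0.29, and H4c14 passed without control replicate 3 (adjusted p = 0.0467).

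Markers of cell types in the spheres moved beside these genes. Over all genes, 2.28% rose, 0.823% fell and 13.7% had an unadjusted p under 0.05. Of 16 neuron markers 3 rose, none fell and 13 did not pass (7 of the 16 had an unadjusted p under 0.05). Their mean signal was 9.36 to 9.56 in control arrays and 9.62 to 9.73 in T3 arrays. Among the 3 that were called, Prph, a neuronal intermediate filament gene, had a log2 change of 0.94, Nos1 0.50 and Snap25 0.33. Of 12 progenitor markers none passed (3 had an unadjusted p under 0.05), with a mean signal of 10.26 to 10.28 in controls and 10.18 to 10.25 with T3. Sox8 at -0.41 (adjusted p = 0.0562, limma) and Ret at 0.26 (adjusted p = 0.139) came nearest. Sox8 passed in 7 of 16 alternative settings (adjusted p 0.0177 to 0.0424), and with any 1 array left out it did not (0.0902 to 0.140). None of 8 glia markers passed (none with an unadjusted p under 0.05), with 9.18 to 9.30 and 9.19 to 9.29, and Entpd2 and Gfap were at 0.15 and -0.20. Of 10 smooth muscle markers 1 rose and 2 fell, with Tagln at -0.72, Acta2 at -0.38 and Myh11 at 0.60. Their mean signal was 7.64 to 7.75 in controls and 7.74 to 7.80 with T3. An unadjusted p under 0.05 was reached by 8 of these 10, and 7 had a difference above 0. Of 10 fibroblast and mesenchyme markers 1 rose and 1 fell, with Thy1 at 1.24 and Twist1 at -0.49 (4 had an unadjusted p under 0.05). Their mean was 10.09 to 10.21 in controls and 10.13 to 10.17 with T3. Whether the rise of Thy1 came from such cells or from other cells of the spheres was not tested. A difference above 0 was found for 3 of these 10, and for 10617 of the 19938 genes tested. T3 and control arrays were fully apart for 4 lower and 2 higher ones, against 19.5% of all genes in either direction. Such separation was also seen for 8 of 16 neuron markers (8 higher) and 8 of 10 smooth muscle markers (5 higher, 3 lower). It was seen for 5 of 12 progenitor markers (1 higher, 4 lower) and 3 of 10 endothelial markers (1 higher, 2 lower). Among glia markers 1 of 8 was apart, and no macrophage and leukocyte or epithelium marker was. Of 10 endothelial markers 1 rose and 2 fell, with Egfl7 at -0.70, Kdr at -0.41 and Plvap at 0.42 (3 had an unadjusted p under 0.05). Their mean was 6.08 to 6.28 in controls and 6.08 to 6.30 with T3. None of 12 macrophage and leukocyte or 10 epithelium markers passed (none with an unadjusted p under 0.05), with control means of 4.26 to 6.15 and 4.37 to 7.15. Among these Cd68 was at -0.16, C1qb at 0.14, Lgr5 at 0.15 and Muc2 at -0.10, and the sign of Cd68 turned with array weights. Of the called markers, Prph, Tagln, Thy1 and Egfl7 passed with any 1 array left out, and each of the other 7 lost its call in at least 3 of those 6 fits (adjusted p up to 0.165). The part of such shifts in the values of Crym and Dio3 was not tested.

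**Figure D4:**
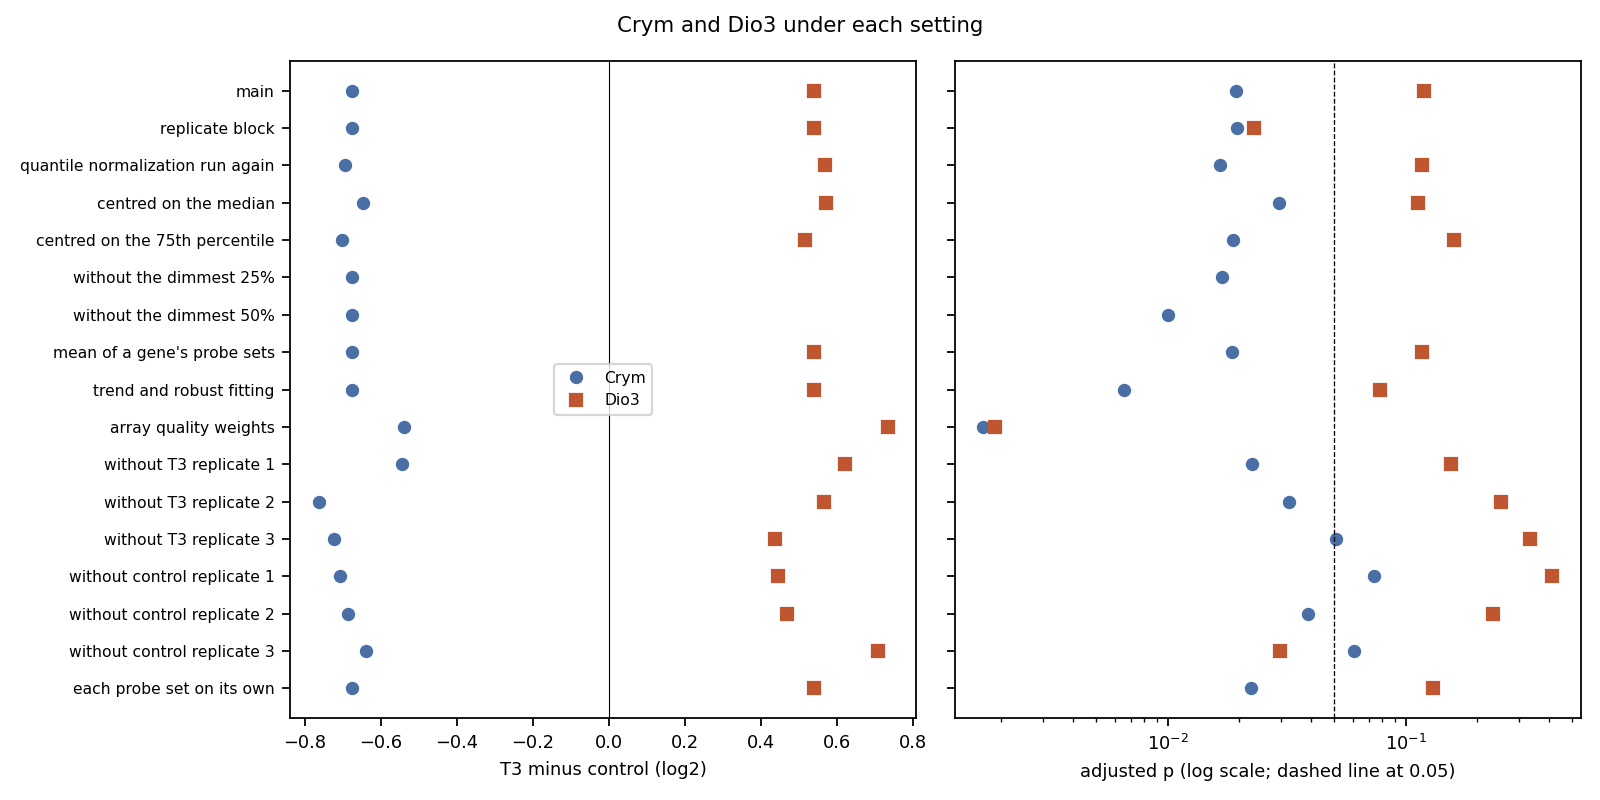
Log2 difference of T3 minus control (left) and its adjusted p (right, log scale, dashed line at the threshold) for Crym (blue circles) and Dio3 (orange squares) under each setting, one per row; Dio3 is absent where dim genes were left out. Crym stays below 0 and Dio3 above 0 in each row, while the adjusted p of Crym crosses the threshold when T3 replicate 3 or when control replicate 1 or 3 is left out, and that of Dio3 with the replicate block, array quality weights or without control replicate 3.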

How the data were processed

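Total RNA of 6 enterosphere samples was measured on Affymetrix arrays. The authors deposited log2 values for 35556 probe sets, made with RMA and Partek version 6.5 per the submitters' processing notes. For their settings and the build: not given in the sources used here. RMA as usually run makes the arrays alike by quantiles, which removes changes common to most genes. The number of arrays limits the precision, and no detection calls are given.

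The platform annotation gave 1 symbol to 21789 probe sets, and the brightest per gene was used (19938 genes). T3 minus control was fitted with limma 3.58.1 in R 4.3.3, two-sided, without filter or covariate. P-values were adjusted by Benjamini-Hochberg across the whole table, with a call at adjusted p under 0.05. Errors are SE of the log2 change or SD over 3 arrays. The fit was checked on simulated data with independent noise in each array, which does not cover noise shared between arrays. How often changes as small as those of Crym and Dio3 are found is not given here. No 2 arrays were duplicates, with an SD of differences of at least 0.137 over all genes. Nothing says that samples of a group are separate preparations beyond their use of 3 mice each, so a p-value covers the spread among these 6 arrays, which may be technical.

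The members, lists and settings were chosen with earlier results of these data known. Named are the members, the called genes of each list or else its 2 of smallest p, the receptors, Klf9, Hr and Slc3a2. Also named are the 3 genes most alike in pattern to a member with adjusted p under 0.15, within the range limit given above. Sox10, Ret, Slco1a4, Slco1a6, Slco3a1, Slc7a3 and Dlk1 were added after their values were seen. Settings tried were the replicate block, renewed quantile normalization, 2 centrings, 2 filters on dim genes, other handling of probe sets, trend and robust fitting, array weights and leaving out each array. Listed genes with no single-symbol probe set were not analysed here.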

Additional observations from a re-analysis of the deposited data

How the results depend on the processing

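For Crym and Dio3, whose groups did not overlap, only renewed quantile normalization or another centring could turn the direction. The replicate block, filters on dim genes, other handling of probe sets and trend and robust fitting left the estimate as it was, where a value remained. Array weights or leaving out 1 array cannot reverse groups that do not overlap. Crym kept its downward direction in all 16 alternatives and its call in 13 of them. Its change lay between -0.76 and -0.54 without any 1 array (adjusted p 0.0226 to 0.0740) and between -0.70 and -0.54 under the other alternatives (0.00168 to 0.0293). Dio3 stayed above 0 in its 14 alternatives, at 0.44 to 0.71 without any 1 array (adjusted p 0.0296 to 0.414). It passed with the replicate block (0.54, adjusted p = 0.0232) and with array quality weights (0.73, adjusted p = 0.00188). Those weights ran from 0.414 to 6.18, with control replicate 1 at 6.18, and gave 3548 calls over all genes against 618. The members called were 2 with either of these settings and 0 to 1 without any 1 array, when 191 to 640 genes were called over all. Of the near-zero differences, Slc16a10 turned to -0.018 and Dio1 to -0.011 with centring on the 75th percentile. With array weights Slco1c1 turned to 0.094, Dio1 to -0.050 and the macrophage gene Cd68 to 0.068. Without any 1 array, Slc16a10 ran from -0.065 to 0.091, Slco1c1 from -0.080 to 0.049, Dio1 from -0.11 to 0.11, Cd68 from -0.26 to 0.00020 and Slc26a4 from -0.16 to 0.018. Slc7a5, Slc7a8 and Dio2 kept direction and stayed not called in all 16 alternatives. Of the other genes named, Sox8 passed with the replicate block, renewed quantile normalization, centring on the 75th percentile, either filter on dim genes, trend and robust fitting, and array weights. The replicate block ended the calls of Slc16a14, Snap25, Nos1, Acta2 and Twist1 (adjusted p 0.0532 to 0.0996) and made that of Aoc1 (0.0227). Centring on the 75th percentile ended those of Snap25, Acta2, Myh11 and Plvap (0.0519 to 0.0907), and centring on the median those of Acta2 and Frzb (0.0564 and 0.0554). Ret passed with trend and robust fitting (0.0270), and each probe set on its own ended the call of Myh11 (0.0540). Array weights also called Trnau1ap, Wsb1, Sult1a1, Rian, Ret, Entpd2, Baalc, H4c14 and Gm5592. Of all calls, 73.5% were higher, against 81.5% with centring on the median and 67.6% on the 75th percentile. Leaving out the dimmest 25% of genes removed Slco1c1, Dio1, Dio3 and Slco1a5, and the dimmest 50% also Slc16a10, so these have no value there.

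The labels number the replicates 1 to 3 in both groups. The deviations of same-numbered arrays from their group means correlated at 0.18, 0.02 and 0.00017. Those of differently numbered arrays correlated at -0.18 to 0.11, so the 0.18 of replicate 1 was the highest. In the main fit the arrays were taken to share only a number, and whether they were paired is not known. The replicate block lowered the calls over all genes from 618 to 472. The causes of these shifts were not tested. Without detection calls, whether Slco1c1, Dio1, Dio3 and Slco1a5 exceeded background is unknown.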
